A study of Homo sapiens with 4 samples.

Results

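The insulin-like growth factor axis was followed here through 8 genes, IGF2, IGF1R, IGFBP2, IGFBP3, IGFBP4, IGFBP5, IGFBP7 and PAPPA2, of 23364 genes listed in any of the count tables. They are given by name and not by a threshold on a value, but they were picked with earlier results of these data in view. The cells came from KhES1, a widely used line of human embryonic stem cells (hESC), and were sequenced with 10x Genomics 3′ chemistry, which counts unique molecular identifiers (UMIs), the tags that mark each captured RNA molecule. In hESC 1 and hESC 2 the cells were grown on Matrigel in mTeSR-1 medium. In blastoid 3 and blastoid 4, aggregates of the same line were embedded in a hydrogel. They were kept at first in serum-containing DMEM and then in iBlastoid medium, which followed 3 days in the hydrogel. A blastoid is a stem cell aggregate meant to model the blastocyst. No allele or transgene is named, and all samples come from 1 line. Nothing in the labels says whether the 2 samples of a group were separate cultures, so every p-value speaks for these samples only. Those of blastoid against hESC measure at most the spread between these samples. Those within the blastoids rest largely on the spread shared across genes. The titles of the blastoid samples carry the day of the stem cell samples while their tables carry a later one, and the groups follow the sample descriptions.

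IGF2 is a secreted growth factor that signals through the receptor tyrosine kinase IGF1R to the PI3K and AKT pathway and drives growth of the embryo and placenta. The binding proteins hold most of the ligand in complexes outside the cell, and proteases such as PAPPA2, which cuts IGFBP5 and IGFBP3, release it again. IGFBP7 binds insulin-like growth factors only weakly. PAPPA2 is best known from the placenta, and IGF2 is an imprinted gene whose neighbour, the noncoding RNA H19, is expressed from the other parental copy.

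After barcodes under 500 genes and called doublets had been removed, there were 2238 and 3175 cells in hESC 1 and hESC 2 and 2278 and 1916 cells in blastoid 3 and blastoid 4, with median UMIs per cell of 4996 to 8798. The deposited tables share 1317 barcodes between the hESC samples and 1035 between the blastoid samples, against 6 to 14 between samples of different groups. Among kept cells 23, 0 and at most 4 barcodes were shared in these pairs. Leaving out the shallower copies among kept cells, 20 in hESC 1 and 3 in hESC 2, changed no member's call. It removed 0 cells of the blastoid samples, so it could not change the comparisons within blastoids. Within each group the samples differed by more than sampling noise (chi-square per degree of freedom 4.87 for hESC and 23.9 for blastoid), so each counted as 1 replicate. The 6 pluripotency markers summed to 3700 and 3720 CPM (UMI counts scaled to 1e6 per library) in the hESC samples. No hESC cell fell in the collagen-marked class defined below. The pluripotency-marked class is read before it and took 87.5% and 83% of the cells of hESC 1 and hESC 2. COL3A1, LUM and DCN had no UMI in either, which does not depend on the order of the classes. The remaining hESC cells could thus be collagen-marked only with all of COL1A1, COL1A2 and POSTN. The empty class goes with both the class order and these missing UMIs.

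Blastoid cells were split by 5 genes shared by trophectoderm and amnion, TFAP2A, TFAP2B, GABRP, VTCN1 and KRT7. Cells with a UMI of 2 or more of them are called marked epithelial, a name for the rule and not for a cell type. There were 360 of 2278 such cells (15.8%, Clopper-Pearson 95% interval 14.3 to 17.4%) in blastoid 3 and 626 of 1916 (32.7%, 30.6 to 34.8%) in blastoid 4, but 11 in hESC 1 and 5 in hESC 2. Unmarked blastoid cells were divided further. Those with 3 or more of POU5F1, SOX2, NANOG, TDGF1, DPPA4 and L1TD1 are called pluripotency-marked (6.72% and 6.47% of blastoid 3 and 4). Those with 3 or more of COL3A1, LUM, COL1A1, COL1A2, POSTN and DCN are called collagen-marked (47.9% and 42.5%). The other unmarked cells made up 29.6% and 18.4%. Median UMIs per cell lay between 5837 and 9060 in the classes of blastoid 3 and between 8205 and 12454.5 in those of blastoid 4. The 5 endothelial markers summed to at most 16.9 CPM and the 4 hypoblast or endoderm markers in the tables to at most 14.2 CPM in any class.

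Promoter-side sequence is shown for 3 binding protein and protease genes whose levels separate the blastoid classes below. IGFBP5 and PAPPA2 were both highest in the marked epithelial cells, and IGFBP3 was high in collagen-marked cells too. Each run is the 250 bases before the annotated start in RefSeq, on the gene's own strand, build GRCh38.p14. Capitals mark a TFAP2-type motif (GCCNNNGGC) in IGFBP5 and the GC box (GGGCGG or its complement) in IGFBP3.
IGFBP5, chr2:216695550-216695799, minus strand: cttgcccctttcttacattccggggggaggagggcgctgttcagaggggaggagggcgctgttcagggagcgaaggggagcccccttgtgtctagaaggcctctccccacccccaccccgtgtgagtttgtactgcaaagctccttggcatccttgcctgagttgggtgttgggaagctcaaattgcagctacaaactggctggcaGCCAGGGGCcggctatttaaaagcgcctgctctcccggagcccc
PAPPA2, chr1:176462925-176463174, plus strand: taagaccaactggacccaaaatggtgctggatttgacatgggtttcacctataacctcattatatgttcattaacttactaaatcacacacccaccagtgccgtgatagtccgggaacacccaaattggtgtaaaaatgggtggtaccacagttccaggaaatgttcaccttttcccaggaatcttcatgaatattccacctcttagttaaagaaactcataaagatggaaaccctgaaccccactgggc
IGFBP3, chr7:45921273-45921522, minus strand: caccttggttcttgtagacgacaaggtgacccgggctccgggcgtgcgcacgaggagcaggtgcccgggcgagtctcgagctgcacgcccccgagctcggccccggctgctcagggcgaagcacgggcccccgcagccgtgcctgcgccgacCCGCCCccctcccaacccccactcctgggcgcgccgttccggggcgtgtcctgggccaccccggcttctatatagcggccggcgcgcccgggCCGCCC

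Both strands were searched for GCCNNNGGC, the GC box GGGCGG, the TATA box TATAAA and the AP-1 motif TGANTCA, which occur in 19.8%, 42.6%, 10.7% and 6.57% of 35116 promoter windows of this length. IGFBP5 held 1 GCCNNNGGC, starting at -44 from the annotated start, and none of the other motifs. IGF1R, whose level differed little between classes, held 1 GCCNNNGGC as well, at -94. PAPPA2 held none of them, and its window was 42.8% G and C against 61.2% for IGFBP5 and 76% for IGFBP3. IGFBP3 held 2 GC boxes, at -98 and -6, and no other match, so none of the 3 windows overlapped 2 motifs. A match is only a stretch of letters. The table holds 6 of the 8 genes and lacks IGF2 and IGFBP7. In the same annotation IGF2 lies at chr11:2129117-2149566, IGF1R at chr15:98648539-98964530, IGFBP4 at chr17:40443450-40457725 and IGFBP7 at chr4:57030773-57110385. IGFBP2 (chr2:216632828-216664436) and IGFBP5 (chr2:216672105-216695549) point toward each other with 7668 bases between them.

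The first comparison, blastoid against hESC samples, asks how the axis differs between the starting line and the structures made from it. UMIs were summed per sample, so here fewer cells of a kind and less RNA per cell cannot be told apart. Of the 8 genes, 5 were higher in the blastoids (IGF2, IGFBP3, IGFBP5, IGFBP7 and PAPPA2), 1 was lower (IGFBP2), and IGF1R and IGFBP4 did not pass the test. Over all 16332 genes tested, 49.9% were called at an adjusted p under 0.05 in the edgeR quasi-likelihood test, 27.1% higher and 22.8% lower, so a call alone is common. The median log2 fold change was 6.01 over the 8 genes and 0.05 over all genes. The count over all genes, 8157, was 4896 without hESC 1 and 5114 without hESC 2, while the same 6 calls were made among the 8 genes. Without TMM scaling, by library size alone, the median over all genes moved up by 0.13 and the share of calls that were higher went from 54.3% to 63.1%, with 5 members higher and 1 lower as before.

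The ligand IGF2 was listed in neither hESC table. It reached 35.9 CPM in blastoid 3 and 15.5 CPM in blastoid 4. Taking up to 4 unlisted counts over the hESC group, with a floor of 9.15 counts over that group, it was at least 77.1-fold higher in the blastoids (edgeR adjusted p = 0.000352). Blastoid 4 was at 0.431 times the level of blastoid 3, and the bound was 47.2-fold without blastoid 3 and 109-fold without blastoid 4. With 1 hESC sample left out and a floor of 6.3 counts in the other, it was 61.9-fold without hESC 1 and 50.1-fold without hESC 2. The IGF2 locus overlaps INS-IGF2 on the same strand and IGF2-AS on the other, and how the counting treated overlaps and strand is not given in the sources used here.

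The receptor gene IGF1R was at 71.4 and 72.3 CPM in the hESC samples and 70.2 and 54.2 CPM in blastoid 3 and blastoid 4. Its log2 fold change was -0.21 ± 0.15 (SE), with an edgeR adjusted p of 0.292. All 4 samples lay close together except blastoid 4, and without blastoid 3 the value was -0.40 with an edgeR adjusted p of 0.00843.

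Binding protein genes moved in different directions. IGFBP2, an early binding protein of embryonic epithelia and stem cells, stood at 635 and 485 CPM in the hESC samples and at 176 and 297 CPM in the blastoids. The groups did not overlap, and the log2 fold change was -1.24 ± 0.26 (edgeR adjusted p = 0.00607). IGFBP3, the main carrier of insulin-like growth factors in blood, was at 2.08 and 2.4 CPM in the hESC samples against 401 and 416 CPM in the blastoids. Its blastoid samples lay closest of the 5 genes that rose, and the log2 fold change was 7.50 ± 0.18 (edgeR adjusted p = 4.86e-06).

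IGFBP5, a binding protein that attaches to the matrix, was at 3.92 and 3.31 CPM in the hESC samples and 44.8 and 120 CPM in blastoid 3 and blastoid 4. The groups were far apart, but blastoid 4 was 2.69 times blastoid 3, and the log2 fold change was 4.52 ± 0.49 (edgeR adjusted p = 0.000381). IGFBP4, which mainly restrains ligand action, was at 68.3, 65.2, 58.7 and 58.7 CPM in the 4 samples in that order. These values differed little, with a log2 fold change of -0.19 ± 0.12 (edgeR adjusted p = 0.233).

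IGFBP7 had 9 UMIs in both hESC samples together and 2743 in the blastoids. It was at 0.481 and 0.194 CPM in hESC 1 and hESC 2, 32.9 CPM in blastoid 3 and 124 CPM in blastoid 4. The ratio of the scaled counts was 249, with an exact counting interval of 131 to 545 (edgeR adjusted p = 0.000437). The protease gene PAPPA2 had 5 UMIs in the hESC samples and 1939 in the blastoids, with 0.0801, 0.259, 19.7 and 91 CPM in the 4 samples. Its ratio was 317, with a counting interval of 135 to 977 (edgeR adjusted p = 0.000845). Both genes were high in both blastoid samples and near 0 in the hESC samples, but blastoid 4 exceeded blastoid 3 by 3.76 times for IGFBP7 and 4.62 times for PAPPA2.

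These sample gaps set the size of the change for the last 3 genes. Without blastoid 4 the log2 fold changes were 3.61 for IGFBP5, 6.61 for IGFBP7 and 6.69 for PAPPA2, and without blastoid 3 they were 5.07, 8.56 and 8.93. Without hESC 1 they were 4.64, 8.60 and 7.70, and without hESC 2 they were 4.39, 7.33 and 9.29. Each stayed called in each of these fits, in which a lone sample is assumed to vary like the other group. The share of marked epithelial cells also differed between the blastoid samples, 15.8% against 32.7%. Within the marked epithelial cells blastoid 4 still exceeded blastoid 3, by 1.83 times for IGFBP5, 2.15 times for IGFBP7 and 2.46 times for PAPPA2. In barcodes with fewer than 500 genes, which were left out, IGFBP7 was at 125 and 280 CPM of total UMIs in blastoid 3 and blastoid 4 and PAPPA2 at 68.2 and 131. The part of such RNA in the sample gap was not tested.

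**Figure D1:**
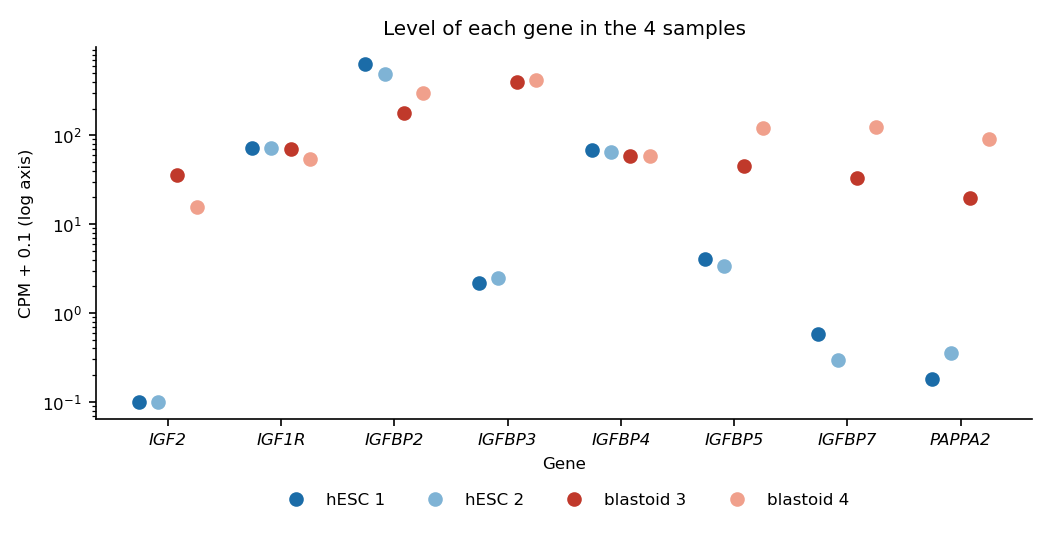
Level of each gene in the 4 samples, in CPM plus 0.1 on a log axis, 1 point per sample. IGF2, IGFBP3, IGFBP5, IGFBP7 and PAPPA2 were higher in both blastoid samples, IGFBP2 was lower, and IGF1R and IGFBP4 did not pass the test.

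Counted per cell, with each cell thinned to 2000 UMIs and cells of lower depth dropped, IGFBP3 had a UMI in 0.398% ± 0.0145 of hESC cells and 28% ± 3.32 of blastoid cells (SD, n = 2 samples). For IGFBP2 the shares were 57.5% ± 3.79 and 34.2% ± 8.06, for IGFBP7 0.0731% ± 0.025 and 9.33% ± 6.95, and for PAPPA2 0.0227% ± 0.0321 and 5.98% ± 5.2. IGF2, not listed in the hESC tables, had a UMI in 5.73% ± 3.04 of blastoid cells. Groups of 2 samples cannot go below p = 0.33 in an exact two-sided permutation test, the value obtained for each gene except IGF1R (exact p = 1) and IGFBP4 (exact p = 0.67). Intervals of shares and floors cover counting error only.

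The second comparison, marked epithelial against unmarked blastoid cells, asks where in the blastoids each gene was expressed. UMIs were summed per blastoid sample and class, and the sample was kept as a block because both sums come from it. All 8 genes were called, 6 higher and 2 lower in the marked epithelial cells, where 50% of 14906 genes were called (25.6% higher, 24.4% lower). The median log2 fold change was 0.87 over the 8 genes and -0.02 over all. By library size alone the median over all genes moved by -0.14, the share of calls that were higher went from 51.2% to 38.7%, and IGF1R and IGFBP3 lost their calls. With 4 sums each gene leaves 1 residual degree of freedom, so its error rests largely on the spread shared across genes.

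PAPPA2 was the most unequal of the 8 genes. It reached 113 CPM in the marked epithelial cells of blastoid 3 and 278 CPM in those of blastoid 4. The pluripotency-marked cells had 2.62 and 0.649 CPM, the collagen-marked cells 0.666 and 3.15 CPM, and the other unmarked cells 2.79 and 4.14 CPM. The lowest marked epithelial value was thus far above the highest of any other class, while the order among those other classes changed between samples. The log2 fold change was 6.39 ± 0.13 (edgeR adjusted p = 1.25e-15). Marked epithelial cells held 93.5% of the PAPPA2 UMIs of blastoid 3 and 97.8% of those of blastoid 4, and 17.5% and 35.5% of all UMIs.

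IGFBP7 came next, with 166 and 357 CPM in the marked epithelial cells of blastoid 3 and blastoid 4. It was lower in pluripotency-marked cells (25.5 and 59.1 CPM), in other unmarked cells (7.91 and 11.4 CPM) and in collagen-marked cells (3.2 and 6.86 CPM). This order was the same in both samples. The log2 fold change was 4.56 ± 0.10 (edgeR adjusted p = 1.50e-15). Part of IGFBP7 overlaps POLR2B on the other strand.

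IGFBP5 stood at 182 and 333 CPM in marked epithelial cells, at 25.2 and 25.2 CPM in collagen-marked cells, at 13 and 22.4 CPM in other unmarked cells and at 2.62 and 3.9 CPM in pluripotency-marked cells. The last class was at the level of the hESC samples, 3.73 ± 0.467 CPM (SD, n = 2). The log2 fold change was 3.66 ± 0.12 (edgeR adjusted p = 1.14e-13). IGFBP5 overlaps the antisense gene AC007563.2.

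IGFBP2, which was lower in the blastoids as a whole, was at 370 and 535 CPM in marked epithelial cells. It was at 173 and 226 CPM in pluripotency-marked, 138 and 183 CPM in collagen-marked and 139 and 211 CPM in other unmarked cells. The marked epithelial values overlapped the hESC values on the same scale, 657 and 499 CPM, and the other 3 classes overlapped one another. The log2 fold change between marked epithelial and unmarked cells was 1.44 ± 0.06 (edgeR adjusted p = 5.80e-12).

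IGFBP4 ran the other way, with 34.1 and 36.5 CPM in marked epithelial cells. It was at 52.9 and 61.2 CPM in collagen-marked cells, 88.3 CPM in the pluripotency-marked cells of both samples, and 78.8 and 93.6 CPM in other unmarked cells. The last 2 classes overlapped. The log2 fold change was -0.95 ± 0.11 (edgeR adjusted p = 9.91e-07). The hESC samples, at 70.8 and 67.1 CPM on this scale, lay between the collagen-marked and other unmarked values.

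IGF2 was also lower in the marked epithelial cells, at 15 and 7.38 CPM, than in all unmarked cells, with a log2 fold change of -1.44 ± 0.17 (edgeR adjusted p = 1.43e-06). Collagen-marked cells were at 63 and 29.5 CPM, the highest values of any class in each sample. The other unmarked cells, at 14.9 and 6.91 CPM, matched the marked epithelial cells closely in each sample, and against them alone the log2 fold change was 0.03 (edgeR adjusted p = 0.943). Blastoid 4 was below blastoid 3 in every class, by 0.464 to 0.579 times.

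IGFBP3 depended on the class it was set against. Marked epithelial cells had 391 and 559 CPM, collagen-marked cells 683 and 541 CPM, pluripotency-marked cells 122 and 92.2 CPM, and other unmarked cells 48.6 and 96.7 CPM. The first pair of classes overlapped, as did the last pair. Against all unmarked cells the log2 fold change was 0.30 ± 0.10 (edgeR adjusted p = 0.0192), with opposite signs in the samples, -0.11 without blastoid 4 and 0.52 without blastoid 3. Against collagen-marked cells alone it was -0.33 (edgeR adjusted p = 0.000916), and against other unmarked cells alone 2.72. Without the block the adjusted p was 0.297, and with DESeq2 it was 0.6.

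IGF1R varied least between classes. It was at 78.7 and 66.2 CPM in marked epithelial, 76.5 and 57.8 CPM in pluripotency-marked, 65.9 and 47.8 CPM in collagen-marked and 76.5 and 56.3 CPM in other unmarked cells. Every class of blastoid 3 lay above the same class of blastoid 4, and the classes overlapped except marked epithelial and collagen-marked cells. Its log2 fold change was 0.29 ± 0.10 (edgeR adjusted p = 0.0175). The adjusted p was 0.373 without the block and 0.288 with DESeq2.

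**Figure D2:**
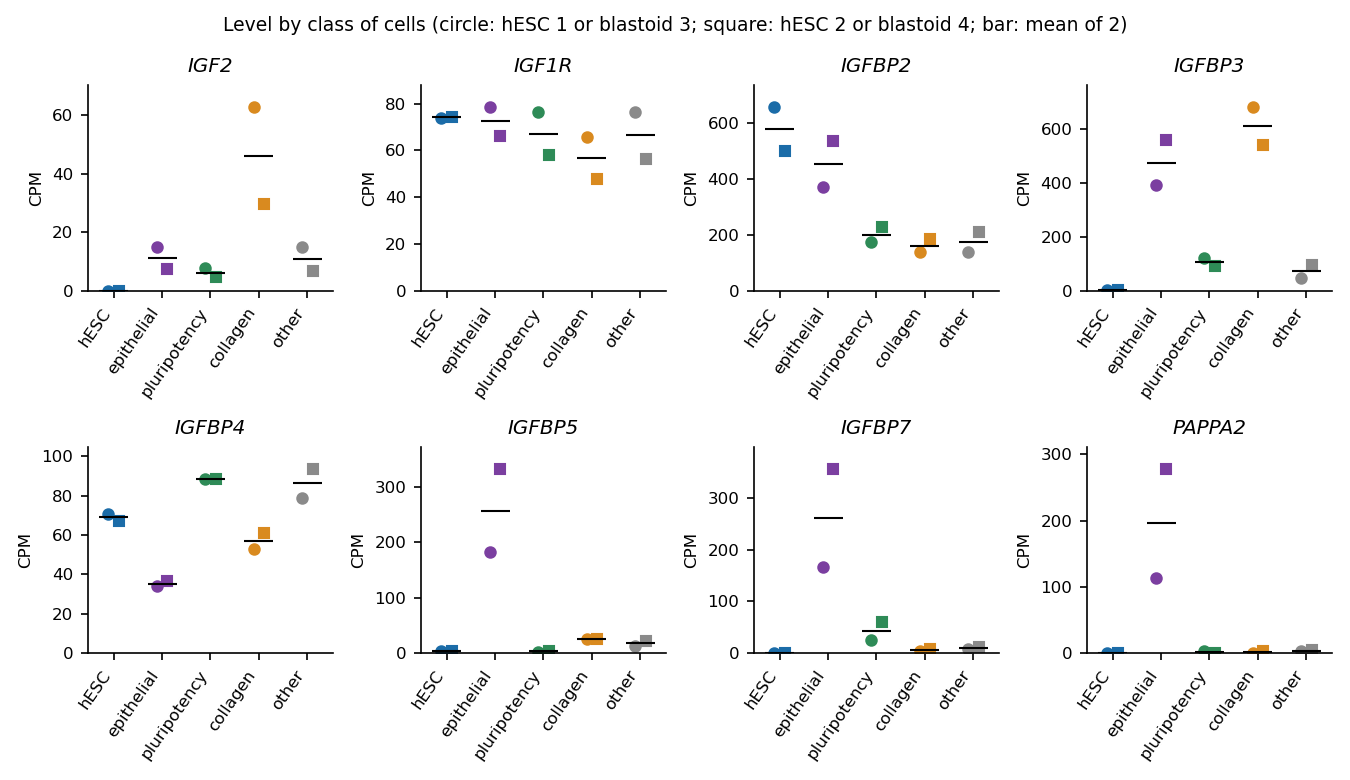
CPM of each gene in the hESC samples and in 4 classes of blastoid cells, 1 point per sample, with a bar at the mean of 2 samples. PAPPA2, IGFBP7 and IGFBP5 stood highest in marked epithelial cells, IGF2 in collagen-marked cells, and IGFBP3 in both of these classes.

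**Figure D3:**
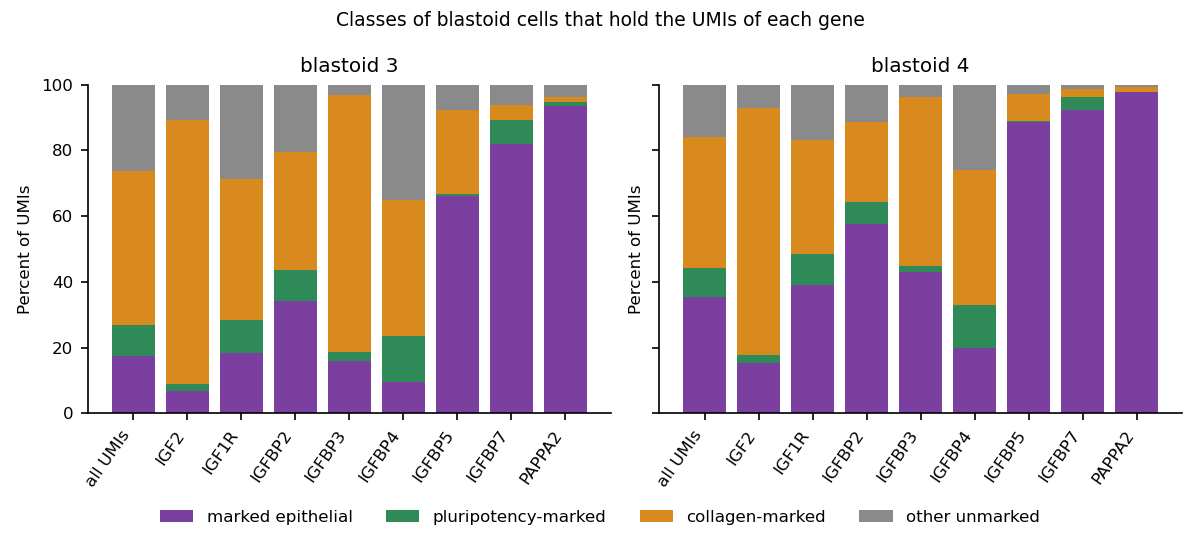
Percent of each gene's UMIs found in each class of blastoid cells, beside the same percent for all UMIs (first bar of each panel). Marked epithelial cells held 93.5% and 97.8% of PAPPA2 UMIs, and collagen-marked cells held 80.3% and 74.9% of IGF2 UMIs.

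The levels changed with the number of the 5 split markers in a cell. Just outside and just inside the split, at 1 and 2 markers, PAPPA2 was at 4.14 and 57 CPM of total UMIs in blastoid 3 and at 9.14 and 39.3 in blastoid 4. It reached 186 and 381 at 5 markers. IGFBP7 was at 31.9 and 87.8 around the split in blastoid 3 and at 43.6 and 100 in blastoid 4, with 295 and 404 at 5 markers. IGFBP5 was at 14.8 and 126 around the split in blastoid 3 and at 26.4 and 90.5 in blastoid 4. Cells with 5 markers also carried the most UMIs, a mean of 10921 in blastoid 3 and 11542 in blastoid 4, and the share of the pattern that goes with depth was not tested. The groups at 2 and 5 markers held 96 and 36 cells in blastoid 3 and 98 and 145 in blastoid 4.

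**Figure D4:**
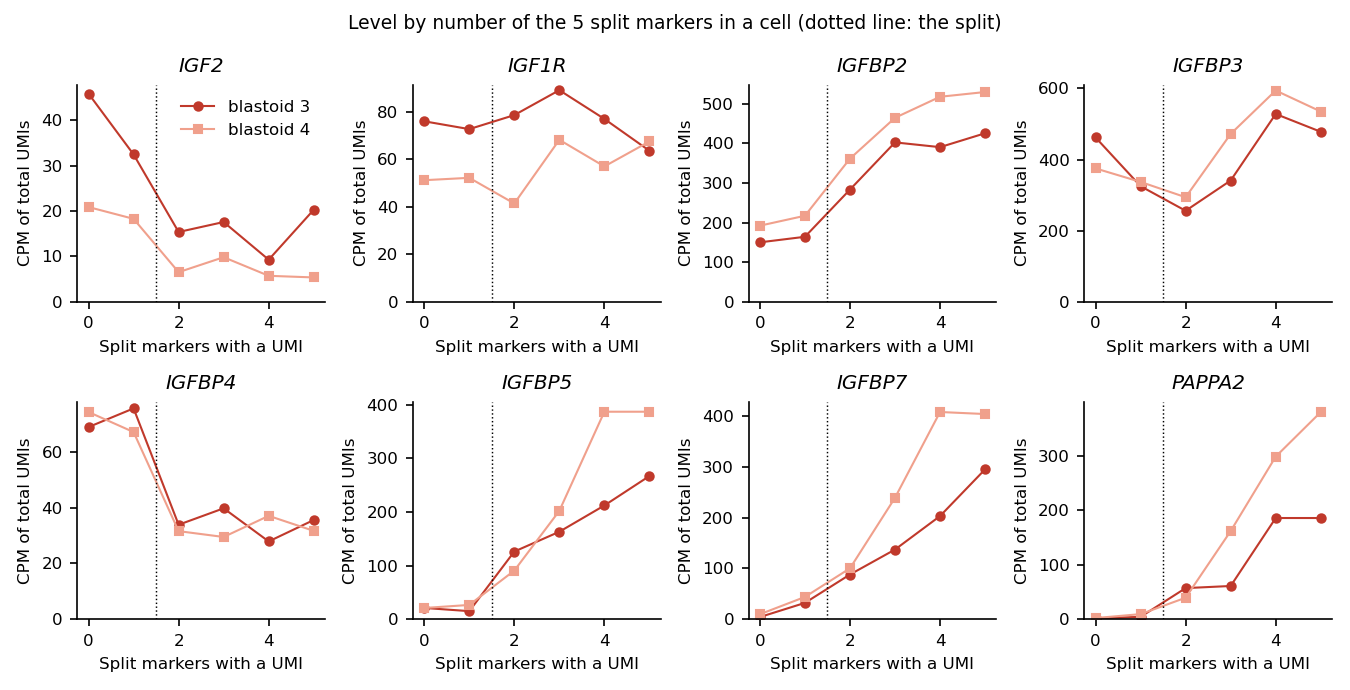
Level of each gene, in CPM of total UMIs, by the number of the 5 split markers with a UMI in the cell, for blastoid 3 and blastoid 4. PAPPA2, IGFBP5, IGFBP7 and IGFBP2 were higher at 5 markers than at 0 in both samples, and IGF2 and IGFBP4 were lower.

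Within marked epithelial cells thinned to 2000 UMIs, PAPPA2 had a UMI in 12.7% of cells (95% interval 9.39 to 16.7%) in blastoid 3 and in 27.9% (24.4 to 31.6%) in blastoid 4. In collagen-marked cells, whose median depth was 6085 and 8205 UMIs against 6699 and 9390, the shares were 0.276% and 0.617%. Without thinning the marked epithelial shares were 25.6% and 45.2%. IGFBP7 had a UMI in 22.3% and 39% of marked epithelial cells and in 0.737% and 1.11% of collagen-marked cells.

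Cells with PAPPA2 more often had a UMI of IGFBP7 too. In blastoid 3, IGFBP7 had a UMI in 40.9% of the 44 marked epithelial cells with PAPPA2 and in 19.5% of the 302 without it. In blastoid 4 the shares were 55.5% of 173 and 32.6% of 448, so many cells with a UMI of PAPPA2 had none of IGFBP7. IGFBP3 was also seen more in cells with PAPPA2, at 59.1% against 35.8% in blastoid 3 and 65.9% against 40.2% in blastoid 4. All of IGFBP5, IGFBP7 and PAPPA2 were seen together in 2.02% and 5.8% of marked epithelial cells and in no cell of another class. PAPPA2 alone had a UMI in at most 0.813% of cells of any other class. A cell with all of these genes could hardly be seen there, so its absence says nothing on joint expression. The cells counted here share their samples, so the shares are descriptions with no test. In collagen-marked cells IGFBP3 was seen in 47.1% of IGF2-positive and 32.1% of IGF2-negative cells of blastoid 3, but in 27.8% and 28.2% in blastoid 4, so the pattern was not repeated.

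A last comparison divided the unmarked cells into collagen-marked and other unmarked cells, the latter including the pluripotency-marked. IGF2, IGFBP3 and IGFBP5 were higher in collagen-marked cells, IGF1R, IGFBP2, IGFBP4 and IGFBP7 were lower, and PAPPA2 did not pass the test. That is 7 of 8 genes called, where 26.4% of 13882 genes were called (12.6% higher, 13.8% lower). The median log2 fold change was -0.23 over the 8 genes and 0.00 over all. Without the block, 2 of the 8 were called, IGF2 and IGFBP3, and with DESeq2 4 were.

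IGFBP3 had the largest difference, a log2 fold change of 2.89 ± 0.10 (edgeR adjusted p = 5.69e-18), and IGF2 followed with 2.24 ± 0.14 (edgeR adjusted p = 2.41e-12). Collagen-marked cells held 80.3% and 74.9% of the IGF2 UMIs of blastoid 3 and blastoid 4 and 78.1% and 51.2% of the IGFBP3 UMIs, with 47% and 39.7% of all UMIs. IGFBP5 was higher by 0.94 ± 0.16 (edgeR adjusted p = 6.44e-05). It was at 25.2 CPM in the collagen-marked cells of both samples and at 2.62 and 3.9 CPM in pluripotency-marked cells. Other unmarked cells without the pluripotency-marked had 13 and 22.4 CPM, so in blastoid 4 they lay close to the collagen-marked cells. The IGFBP5 log2 fold change was -0.84 when the markers were read after thinning to 2000 UMIs. There, 13.8% and 26.4% of the other unmarked cells were marked epithelial at full depth. IGFBP7 was lower, at -2.03 ± 0.20 (edgeR adjusted p = 6.11e-09, and 0.0554 without the block). It was at 25.5 and 59.1 CPM in the pluripotency-marked cells, which are counted on the other side. Collagen-marked cells had 3.2 and 6.86 CPM, and other unmarked cells without the pluripotency-marked had 7.91 and 11.4 CPM. Under the alternatives the IGFBP7 log2 fold change ranged from -2.70 to -1.01. IGFBP4 was lower by a smaller amount, -0.63 ± 0.09 (edgeR adjusted p = 2.67e-06, and 0.0687 without the block). The 2 smallest calls were those of IGF1R, at -0.26 ± 0.09 (edgeR adjusted p = 0.0371), and of IGFBP2, at -0.20 ± 0.07 (edgeR adjusted p = 0.0267). PAPPA2, at -0.71 ± 0.46 (edgeR adjusted p = 0.287), was -2.08 without blastoid 4 and 0.10 without blastoid 3, at levels near 0 in both classes.

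A list of 40 other genes of the pathway was read in the same fits. In blastoid against hESC samples 11 of 35 tested were higher and 10 lower, with a median of 0.35, where 27.1% and 22.8% of all genes were called. Between marked epithelial and unmarked cells 13 of 34 were higher and 12 lower, with a median of 0.03, beside 25.6% and 24.4% of all genes. Between collagen-marked and other unmarked cells 11 of 34 were higher and 7 lower, with a median of 0.10, beside 12.6% and 13.8% of all genes. The latter comparisons share cells, so their values stand side by side below. IGF1, INSRR and IGFBP1 had too few UMIs to test, with at most 13 in any sample, and INS and IGFALS were listed in none of the count tables.

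Proteases and their inhibitors differed in level between the marked epithelial and collagen-marked classes. PAPPA, the relative of PAPPA2 that cuts IGFBP4, was at 43.1 and 13.2 CPM in collagen-marked cells and at 6.74 and 1.41 CPM in marked epithelial cells. Its log2 fold change was -2.23 in marked epithelial against all unmarked cells (edgeR adjusted p = 1.37e-06), opposite in sign to PAPPA2. In collagen-marked against other unmarked cells it was 2.71 (edgeR adjusted p = 4.14e-10). Other unmarked cells without the pluripotency-marked had 4.19 and 3.11 CPM of PAPPA. That was below the marked epithelial value in blastoid 3 and above it in blastoid 4. STC2, a stanniocalcin that inhibits both proteases, was at 39.7 and 34.1 CPM in marked epithelial cells and at 2.8 and 1 CPM in collagen-marked cells, with log2 fold changes of 3.30 and -1.78. Its relative STC1 was at 35.2 and 18.6 CPM in marked epithelial and at 68.2 and 37.9 CPM in collagen-marked cells. The STC1 log2 fold changes were -0.58 and 1.11, while pluripotency-marked cells had 101 and 26 CPM. Other unmarked cells without the pluripotency-marked had 10.9 and 6.91 CPM of STC1, below the marked epithelial cells of each sample. ADAM12, another protease that cuts binding proteins, had the same signs as PAPPA and STC1, at -2.53 and 1.71. It was at 2.62 and 1.76 CPM in marked epithelial cells and at 7.21 and 5.18 CPM in other unmarked cells without the pluripotency-marked. PAPPA, STC2, STC1 and ADAM12 each passed the test in both comparisons, in which 50% and 26.4% of all genes were called. HTRA1, a serine protease, was lower in marked epithelial cells by a log2 fold change of -0.65 and did not pass the test in the other comparison.

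Of the other binding protein genes, IGFBP6 and IGFBPL1 could be tested. IGFBP6, which prefers IGF2 over IGF1, was at 31.9 and 34.9 CPM in other unmarked cells, 16.2 and 18 CPM in collagen-marked cells and 4.87 and 2.46 CPM in marked epithelial cells. It was called lower in both comparisons, by log2 fold changes of -2.69 and -0.71. IGFBPL1 was at 36 and 33.1 CPM in the hESC samples and at 13.1 and 15.1 CPM in the blastoids, a log2 fold change of -1.29 (edgeR adjusted p = 0.000468). Neither of the receptor genes IGF2R and INSR passed the test in any of the 3 comparisons.

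H19 was at 2.24 and 1.62 CPM in the hESC samples and at 1000 and 585 CPM in blastoid 3 and blastoid 4, a log2 fold change of 8.69 ± 0.37 (edgeR adjusted p = 1.03e-05). Like IGF2, 127850 bases away, it was lower in blastoid 4 and highest in collagen-marked cells, at 1530 and 886 CPM. It was at 766 and 505 CPM in marked epithelial, 570 and 357 CPM in other unmarked and 264 and 182 CPM in pluripotency-marked cells. Like IGF2 it was called lower in marked epithelial than in unmarked cells, with a log2 fold change of -0.41 ± 0.05 (edgeR adjusted p = 2.23e-06). CDKN1C, an imprinted inhibitor of the cell cycle, was highest in marked epithelial cells, at 223 and 369 CPM, with a log2 fold change of 1.93 against unmarked cells (edgeR adjusted p = 8.48e-12). PLAGL1, an imprinted transcription factor, was at 31.2 and 23.9 CPM in collagen-marked and at 7.12 and 7.2 CPM in marked epithelial cells, a log2 fold change of -1.61 for the latter against unmarked cells.

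Downstream of the receptor, 6 of the 12 PI3K and AKT genes were higher in marked epithelial cells and 3 lower, beside 25.6% and 24.4% of all genes. In blastoid against hESC samples 4 were higher and 3 lower (27.1% and 22.8% of all genes), and in collagen-marked against other unmarked cells 3 were higher and 3 lower (12.6% and 13.8%). PIK3R1, a regulatory subunit of PI3K, was at 153 and 158 CPM in marked epithelial cells. The other blastoid classes were at 34.9 to 47.4 CPM. The PIK3R1 log2 fold change in marked epithelial against unmarked cells was 1.94 ± 0.09 (edgeR adjusted p = 8.56e-12). In the same comparison FOXO3, a transcription factor that AKT keeps out of the nucleus, was higher by 1.53 and FOXO1 by 0.88. Of the adaptor genes 4 of 6 were lower in the blastoids, beside 22.8% of all genes. Of the 5 adaptor genes tested within the blastoids, 1 was higher and 1 lower in marked epithelial cells (25.6% and 24.4% of all genes), and none was called between collagen-marked and other unmarked cells (26.4% of all genes).

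**Figure D5:**
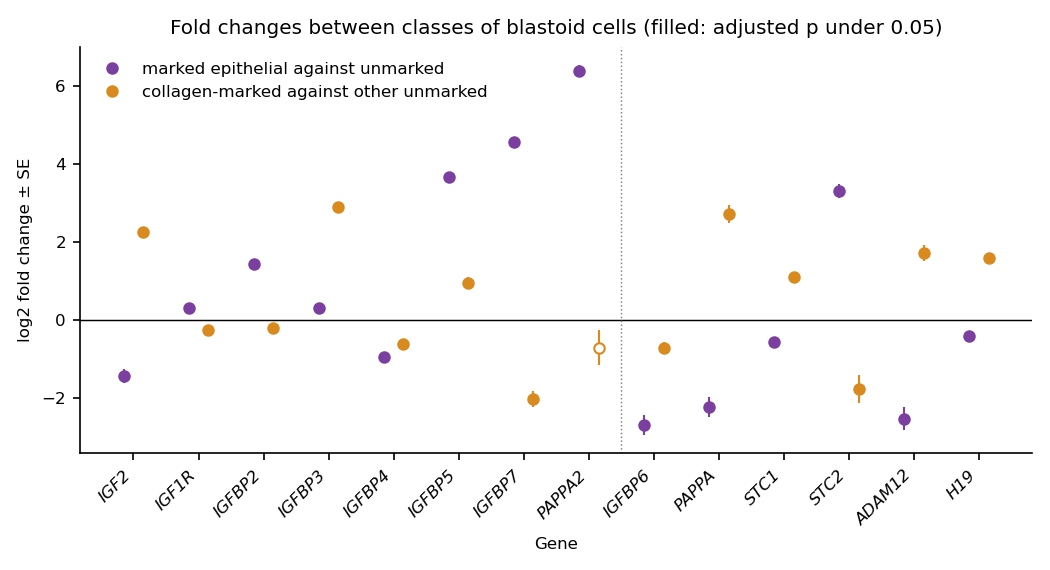
Log2 fold change with its SE for the 8 genes (left of the dotted line) and 6 other genes of the axis, in marked epithelial against unmarked cells and in collagen-marked against other unmarked cells. Filled points passed an adjusted p of 0.05, and the 2 comparisons share cells.

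Over 10 sums (2 hESC samples and 4 classes of 2 blastoid samples), the levels of IGFBP5 and PAPPA2 were the most alike among the 8 genes (Pearson r = 0.91 on log2 CPM), followed by IGF2 and IGFBP3 (0.89) and IGFBP7 and PAPPA2 (0.84). IGFBP4 and IGFBP5 were the most opposed (-0.84). The sums of a class share a library with the other classes, so these are descriptions. Among 6624 genes with a mean of at least 20 CPM, PAPPA2 was most like VTCN1 (0.989), which is 1 of the split markers, and BTG2 (0.980). IGFBP7 was most like PERP (0.986) and ID1 (0.970), IGFBP5 like ARMCX6 (0.988) and OSBPL9 (0.984), and IGFBP3 like COL5A2 (0.988), a fibrillar collagen gene, and AFAP1L2 (0.984). IGF2 was most like ZC2HC1A (0.975) and APBB1 (0.974), and IGFBP2 like ATP6V1G1 (0.993) and DBNDD2 (0.983). IGFBP4 was most like KIF5C (0.980) and DCTPP1 (0.970), and IGF1R like MITD1 (0.941) and SLC39A10 (0.921).

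Markers of other cell types were summed in each class. The collagen and pluripotency markers are high in the classes named after them by the rule. Marked epithelial cells summed to 620 and 709 CPM of the 6 collagen markers, with all 6 detected. The sums were 4980 and 3510 CPM in collagen-marked, 708 and 486 CPM in pluripotency-marked and 337 and 316 CPM in other unmarked cells. Most of each marked epithelial sum was COL1A2, at 434 and 419 CPM, against 566 and 426 CPM in collagen-marked cells. Each of the other collagen markers was at most 87 CPM in marked epithelial cells and at least 239 CPM in collagen-marked cells. Marked epithelial cells also summed to 697 and 695 CPM of the 6 pluripotency markers, against 1750 and 2470 CPM in pluripotency-marked cells. Most of this was L1TD1, at 581 and 558 CPM, against 576 and 749 CPM in pluripotency-marked cells. Each of the other pluripotency markers was lower in marked epithelial than in pluripotency-marked cells of both samples. POU5F1 was at 28.8 and 40.8 CPM against 472 and 805 CPM, and NANOG at 1.5 and 2.99 CPM against 60.2 and 113 CPM. The part of the RNA behind these collagen and pluripotency sums in the IGFBP3 and IGF2 levels of marked epithelial cells was not tested. Of the 5 amnion markers, GABRP and VTCN1 are also split markers. The other 3, ISL1, BAMBI and MUC16, summed to 175 and 211 CPM in marked epithelial cells, 165 and 147 CPM in pluripotency-marked, 368 and 492 CPM in collagen-marked and 228 and 355 CPM in other unmarked cells, and most of each sum was BAMBI. The 5 trophoblast markers lay between 15.6 and 53.9 CPM in every blastoid class except other unmarked cells of blastoid 3, at 159 CPM. The 3 neuroectoderm markers in the tables summed to at most 6.29 CPM in any blastoid class and to 26.5 and 28.2 CPM in the hESC samples.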

How the data were processed

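For each sample the authors deposited a matrix of unnormalized UMI counts, genes (by symbol) against barcodes. Cell Ranger and GRCh38 are named, per the submitters' processing notes, with no version. Filters before deposit are not given in the sources used here, and deposited barcodes hold 201 to 4994 genes. Where a table does not list a gene, its count was set to 0, and up to 2 counts were allowed for in the floor.

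The members and all lists were chosen with earlier results of these data known. The genes named are the 8 members, a list of 40 other genes of the pathway, the markers of cell types, and for each member the 2 genes of most similar level. Kept cells had at least 500 genes and up to 20% mitochondrial UMIs. Scrublet (run in scanpy 1.11.5 on each sample, with 6% doublets expected) called 73 of 9680 passing cells (0.754%) as doublets, which were dropped, and doublets of like cells may remain. UMIs were summed per sample or per sample and class, and tested with edgeR 4.0.16 (quasi-likelihood, TMM, filterByExpr, Benjamini-Hochberg adjustment over all genes tested, call at 0.05). DESeq2 1.42.0 was an alternative. The 5 split markers were left out of the fit of marked epithelial against unmarked cells. From the fit of collagen-marked against other unmarked cells the 6 collagen markers were left out. The pluripotency and split markers, which also shape the classes of that fit, were not left out of it. The SE is the log2 fold change divided by the square root of F. CPM is counts scaled to 1e6 per library with TMM. The paired fits hold the sample as a block since both classes come from the same sample, and the deviations of the 2 classes correlated over genes (0.47 and 0.53). The kept cells held 13255214 and 15913590 UMIs in hESC 1 and hESC 2, and 15106405 and 17679447 in blastoid 3 and blastoid 4. Sequences and positions come from RefSeq, matched by symbol.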

Additional observations from a re-analysis of the deposited data

Results flagged for a closer look

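Barcodes with fewer than 500 genes enter none of the comparisons. They numbered 3676 in hESC 1, 4400 in hESC 2, 1198 in blastoid 3 and 120 in blastoid 4. Genes that were high in the blastoid cells also had UMIs in these shallow blastoid barcodes, above their level in the same kind of barcode of the hESC samples. IGFBP3 was at 303 and 354 CPM of total UMIs in those of blastoid 3 and blastoid 4, against 2.08 and 1.11 in hESC 1 and hESC 2. IGFBP5 was at 99 and 112 against 2.08 and 3.33. IGFBP7 was at 125 and 280 against 0 and 1.66, and PAPPA2 at 68.2 and 131 against 1.39 and 0. In the kept cells of blastoid 3 and blastoid 4, on the same scale, IGFBP3 was at 435 and 418, IGFBP5 at 48.7 and 121, IGFBP7 at 35.7 and 125 and PAPPA2 at 21.4 and 91.4. IGFBP7 and PAPPA2 were thus higher in the shallow barcodes than in the kept cells of both samples, IGFBP5 in blastoid 3 alone, and IGFBP3 in neither. What part RNA from outside the cell has in these values was not tested. The blastoid 4 values in shallow barcodes rest on 6 to 19 UMIs per gene. Each group has 2 samples, too few to ask whether 1 sample stands apart.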

How the results depend on the processing

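The log2 fold changes of the 8 genes between blastoid and hESC samples kept their direction under each of 11 alternatives, and only IGF1R gained a call, without blastoid 3. Requiring a log2 fold change past 1 left 4850 genes called in that comparison, and leaving out 1 sample gave 4896 to 10157 genes and 6 to 7 of the 8 members. Between marked epithelial and unmarked cells, 7454 genes were called, 3619 with DESeq2, 4404 with no replicate block and 3391 past a log2 fold change of 1, where 5 members were called. Between collagen-marked and other unmarked cells, 3661 genes were called, 933 with DESeq2, 822 with no replicate block and 1200 past a log2 fold change of 1, with 4, 2 and 3 members. IGFBP3 and IGF2 changed sign in the former comparison (those against a single unmarked class were added after seeing the data): IGFBP3 was -0.33 against collagen-marked cells alone and -0.11 to 0.52 with 1 blastoid sample left out, and IGF2 was 0.03 against other unmarked cells alone. IGFBP5 was -0.84 in the latter comparison when the split was read after thinning. The share of cells with a UMI differed between blastoid and hESC samples by 8.98 percentage points unthinned and 0.585 thinned to 1000 UMIs for IGF1R, against a fall at 2000 UMIs, and it ranged from -2.13 to 1.47 with 1 sample left out, with 0.142 without hESC 2. For IGFBP4 it was 7.49 unthinned and 0.152 thinned to 1000. The causes of these changes were not tested. The hESC and blastoid samples share no replicate numbers, so no paired analysis was made there. With 1 blastoid sample left out, the comparisons within blastoids have no residual degrees of freedom and give values with no test. IGFBP7 and PAPPA2 had 9 and 5 UMIs in the hESC samples together, so the size of their rise rests on few counts there.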
